A study of Mus musculus with 2 samples.

Results

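The genes that move zinc and iron across intestinal membranes, store them and buffer them were followed in the intestine of wild-type mice and of mice with a targeted Erap1 allele. ERAP1 is the aminopeptidase that trims peptides in the endoplasmic reticulum before they are loaded on MHC class I molecules. The set was defined by gene symbol and holds 37 of the 40879 gene symbols counted. It comprises 10 zinc exporters of the Slc30a (ZnT) family, 14 zinc importers of the Slc39a (ZIP) family, 4 metallothioneins, 4 genes of iron uptake and export at the enterocyte, 2 ferritin chains, transferrin with its receptor, and heme oxygenase 1.

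Both groups were mice on a C57BL/6 background, 8 weeks old when they were assigned to groups, and the labels name no treatment. The first group was ERAP1 WT. The second was labelled ERAP1+/- (HT in the deposited columns) and came from a tm1a embryonic stem cell allele in which loxP sites flank Erap1 exons 6 and 7, crossed to a Cre-expressing strain that is not named in the sources used here. RNA from 3 mice was pooled in equal parts for each genotype and sequenced as 1 QuantSeq library, a method that reads the 3' end of polyadenylated transcripts. There was thus 1 library per genotype and no replicate check of any difference. No p-value is given, and intervals in brackets are 95% intervals of a ratio that cover counting error only. The pools cannot show how much single mice differed, nor whether 1 animal carried a value.

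The libraries held 8114826 reads (WT) and 8907515 reads (HT), and 18% and 16.7% of them fell on mitochondrial and ribosomal RNA. Erap1 itself had 229 reads in WT and 2 in HT, or 0.730% of the WT level, which goes against a label of 1 intact copy. The second library is therefore called the HT-labelled library throughout. Its 3' reads lie outside the deleted exons and do not check the deletion itself. Xist had 1635 and 6451 reads and the Y-linked Ddx3y 319 and 29, so the pools also differed in reads of sex-linked genes, whose part in the results below was not tested. Levels are read counts scaled by TMM to 1000000 reads per library (CPM), where 1 read is worth 0.129 CPM in WT and 0.107 CPM in HT. A gene was called different when log2(CPM + 1) differed by more than 2-fold and reached 4, or 15 CPM, in 1 or both libraries.

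Zinc enters cells through ZIP proteins and leaves the cytosol through ZnT proteins, while metallothioneins are small cysteine-rich proteins that bind zinc and copper. MTF1, a zinc-sensing transcription factor, binds short metal response elements in front of the metallothionein genes and Slc30a1. Iron is handled after transcription as well. When iron is scarce, the iron regulatory proteins bind hairpins in messenger RNAs, blocking translation of ferritin and ferroportin and protecting the transferrin receptor message from decay. Enterocytes reduce dietary iron, import it, store it in ferritin or release it to plasma transferrin, so they meet both metals at the gut surface.

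Promoter windows of Mt1, Mt2 and Slc30a10 at their annotated starts are shown. They hold 3 or more metal response element cores, and these genes had higher values in the HT-labelled library. The 3 genes were picked after those values were seen. The search covered TGCACNC and TGCGCNC on both strands, in windows from 250 bases before to 50 bases after each RefSeq start (build GRCm38.p6). Cores outside a window or near another start were not counted, and which start is used in intestine was not tested. Of 32851 windows in 27025 genes, 25.7% held 1 or more matches, 1.97% held 3 or more and 0.517% held 4 or more. Mt2 had 4 matches, Mt1 had 3 and Slc30a10 had 3, of which 2 overlap each other. All lines run 5' to 3' on the plus strand, with matches in capitals.
Mt1, 250 bases before the start, chr8:94178839-94179088: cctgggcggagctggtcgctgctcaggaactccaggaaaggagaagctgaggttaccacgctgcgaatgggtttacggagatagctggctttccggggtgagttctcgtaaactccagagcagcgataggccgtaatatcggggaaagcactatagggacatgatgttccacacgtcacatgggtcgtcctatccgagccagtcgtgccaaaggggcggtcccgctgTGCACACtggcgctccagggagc
Mt1, across the start, chr8:94179087-94179116: gctcTGCACTCcgcccgaaaagTGCGCTCg
Mt2, 250 bases before the start, chr8:94172368-94172617: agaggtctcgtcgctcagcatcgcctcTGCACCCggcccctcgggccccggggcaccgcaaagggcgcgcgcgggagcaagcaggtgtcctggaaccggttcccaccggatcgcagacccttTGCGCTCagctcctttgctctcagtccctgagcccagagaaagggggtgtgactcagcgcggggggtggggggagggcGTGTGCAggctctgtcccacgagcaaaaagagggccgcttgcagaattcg
Mt2, after the start, chr8:94172618-94172647: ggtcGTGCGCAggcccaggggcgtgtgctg
Slc30a10, 250 bases before the start, chr1:185454598-185454847: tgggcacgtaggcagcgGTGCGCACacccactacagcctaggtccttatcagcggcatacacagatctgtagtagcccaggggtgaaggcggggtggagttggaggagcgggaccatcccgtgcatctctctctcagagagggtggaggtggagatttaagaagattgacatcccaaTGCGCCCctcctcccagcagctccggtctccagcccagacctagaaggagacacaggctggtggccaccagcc

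A promoter window was found for 28 of the 37 genes, 35 windows in all, and 16 of the 28 genes (57.1%) held 1 or more matches against 28.2% of all genes with a window. Genes with several cores lay on both sides of a ratio of 1. Slc30a4 held 3 matches and Slc30a1 and Tfrc 2 each, and all 3 had ratios under 1. Slc39a8 held none in one window and 1 in the other. A match is a string of letters in a window and was not tested for binding.

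**Figure D1:**
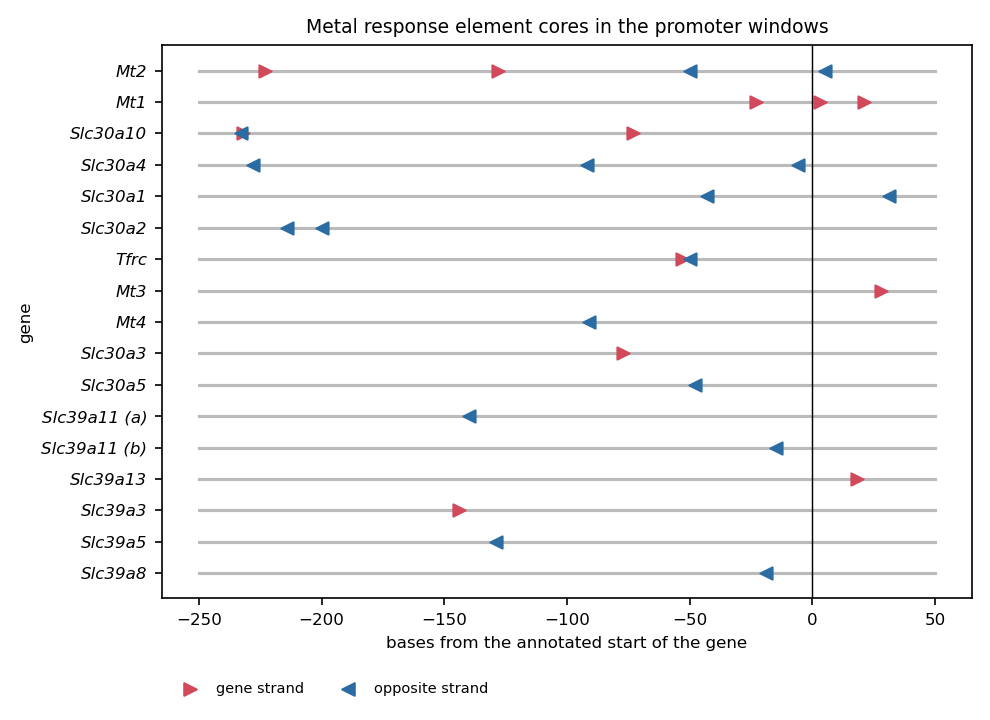
Positions of metal response element cores in the promoter windows of the set, in bases from the RefSeq start (x axis), with one line per window and matches on either strand marked. Mt2 holds 4 matches, and Mt1, Slc30a10 and Slc30a4 hold 3 each.

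Iron responsive elements are shown because the iron regulatory proteins are known to bind such hairpins. A strict pattern was searched in the GENCODE M21 untranslated regions (GRCm38), with an unpaired C, a stem of 5 pairs and a loop. The stem could hold G-T pairs. The loop, printed in capitals, read CAGTG followed by A, C or T. It was found in 123 of 21842 protein-coding genes (0.563%) and in 4 of the 37 genes, namely both ferritin chains, ferroportin (Slc40a1) and the transferrin receptor (Tfrc). The first 3 carry it in the 5' untranslated region and Tfrc carries 4 copies in the 3' untranslated region. Hairpins that depart from the pattern are missed. Slc11a2, some of whose messages hold an iron responsive element, had no match. Each line runs 5' to 3' on the strand of the gene.
Fth1, chr19:9982732-9982760, plus strand: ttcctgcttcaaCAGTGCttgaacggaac
Ftl1, chr7:45459779-45459807, minus strand: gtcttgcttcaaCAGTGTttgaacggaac
Slc40a1, chr1:45925465-45925493, minus strand: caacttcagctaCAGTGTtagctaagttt
Tfrc, chr16:32631219-32631247, plus strand: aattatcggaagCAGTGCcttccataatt
Tfrc, chr16:32631598-32631626, plus strand: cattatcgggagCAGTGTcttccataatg
Tfrc, chr16:32631663-32631691, plus strand: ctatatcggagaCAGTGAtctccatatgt
Tfrc, chr16:32631710-32631738, plus strand: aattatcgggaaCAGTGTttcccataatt

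Of the 37 genes, Slc30a3 and Slc30a8 had no read in either library, which allows up to 0.386 CPM in WT and 0.322 CPM in HT. Slc30a2 had 0 and 2 reads and Slc39a12 had 2 and 0, so 33 genes had 10 or more reads and 23 reached the level of 4. Called different were 4 of these 23 (17.4%), beside 5.34% of all 8013 genes that reached the level. Higher in the HT-labelled library were Mt2, Slc30a10 and Slc39a8, or 13% beside 1.39% of all genes. Lower was Mt4 alone, or 4.35% beside 3.96%. Slc30a10, Slc39a8 and Mt4 reached the level through the library where they were high, and only Mt2 of the 4 reached it in both, so these shares are not support for a change of the set.

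The set as a whole did not lean one way. The median log2 difference over the 33 genes was -0.02, with 15 genes above 0 and 18 below, beside a median of 0.00199 over all 16142 genes with 10 or more reads. When reads were divided by library totals alone (plain CPM), the median of all those genes moved up by 0.11 and that of the set to 0.10, with 20 genes above 0 and 13 below, so small differences depend on the scaling. Counting intervals lay above a ratio of 1 for 13 genes and below it for 9, and held 1 for 11. Among all 16142 genes with 10 or more reads these counts were 3319, 3842 and 8981. How often an interval leaves out 1 also depends on how many reads the genes have. Within 1.5-fold lay 16 of the 23 genes at the level, a smaller share than the 84.4% of all genes at the level.

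**Figure D2:**
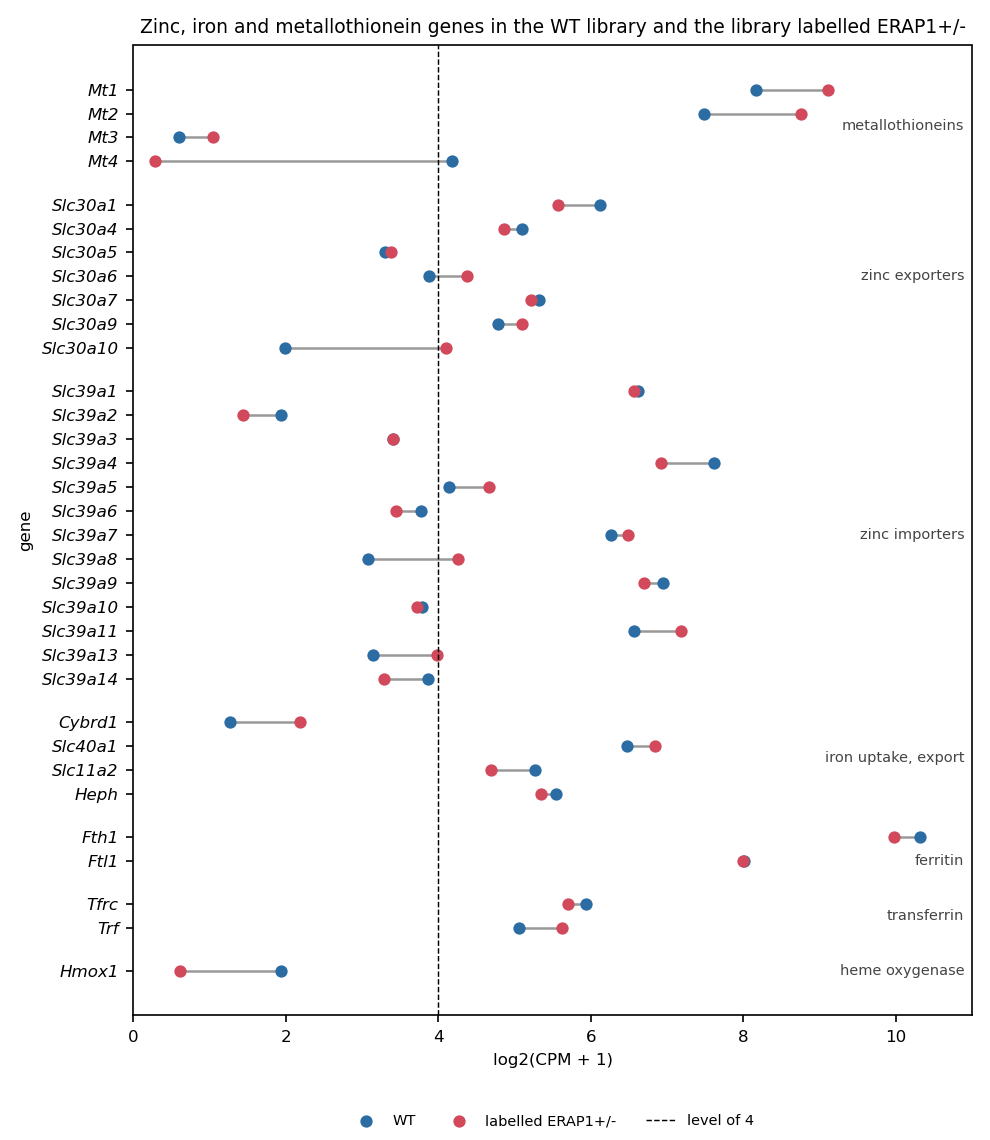
Level of each of the 33 genes with 10 or more reads, in WT and in the HT-labelled (ERAP1+/-) library, as log2(CPM + 1) on the x axis, grouped by role, with the level of 4 as a dashed line. Mt1 and Mt2 sit further right in the HT-labelled library, Mt4 is far to the left there, and most transporters have both points close together.

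The 2 metallothioneins found in most tissues were both higher in the HT-labelled library. Mt1 (chr8:94179082-94180327) had 2219 reads in WT and 5114 in HT, or 286 and 549.8 CPM. The ratio was 1.93 [1.83 to 2.02], a log2 difference of 0.94, just under the 2-fold limit, and with plain CPM it was 2.10 and past it. Mt2, its neighbour on the same strand (chr8:94172664-94173568), had 1385 and 4000 reads, or 178 and 430.0 CPM. Its ratio was 2.41 [2.27 to 2.57], a log2 difference of 1.27, which ranked 54 from the highest among the 8013 genes at the level. Mt1 ranked 131. The range in which the central differences of those genes lay ran from a 5th percentile of -0.88 to a 95th of 0.61.

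The pair did not move by the same factor. Mt2 reads per Mt1 read were 0.624 in WT and 0.782 in HT, an odds ratio of 1.25 [1.16 to 1.36] that does not depend on the scaling between libraries. The summed metallothionein level was 481 CPM in WT and 981 CPM in HT, a ratio of 2.04 [1.96 to 2.12]. Of the genes beside the cluster on chromosome 8, Nup93 had 240 and 278 reads, a ratio of 0.968 [0.811 to 1.15], and Bbs2 had 24 and 21 reads. The message of Mtf1, whose protein drives both genes, was lower, at 301 and 217 reads and a ratio of 0.602 [0.503 to 0.719], inside the 2-fold limit.

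Mt3, the brain-enriched metallothionein, had 4 and 10 reads, and its ratio of 2.09 [0.602 to 9.12] was not resolved at this depth. Mt4, the form of stratified squamous epithelium (chr8:94137197-94139031), had 133 reads in WT and 2 in HT, or 17.1 and 0.215 CPM. It was lower by 3.90 on the log2(CPM + 1) scale, with an HT to WT ratio of 0.0126 [0.00151 to 0.0463]. The cluster thus held both directions, with Mt1 and Mt2 higher and Mt4 nearly without reads in the HT-labelled library.

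Markers of skin-type epithelium moved with Mt4. Of 20 listed genes of the suprabasal epidermis, 19 had 10 or more reads and all 19 were lower in HT, with a median log2 difference of -4.87 and a summed level of 5109 CPM in WT and 1295 CPM in HT. Tgm3 alone gave 1397 and 1243 of these CPM, at a ratio of 0.889, and without it the sum was 3712 and 51.9 CPM. In HT, 8 of the 20 were at 0 reads, among them Ivl, Dsc1 and Dsg1a. Krt10, a keratin of differentiated epidermis, had 3922 and 72 reads. All 10 listed genes of the basal stratified epithelium were lower too, from 866 to 385 CPM in sum, with Trp63 at 0 reads in HT. All 18 of skeletal muscle were lower as well, from 1448 to 24.9 CPM in sum. So were all 10 of smooth muscle, from 11375 to 5796 CPM in sum. The part of these cells in the results of Mt4 and of the other lower genes was not tested. In bulk RNA, fewer cells of a type and less RNA per cell cannot be told apart.

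Other marker lists are given for the genes that were higher. All 7 goblet cell genes had higher values in HT, with 8356 and 13549 CPM in sum and a median log2 difference of 0.72. The 15 colonocyte genes, epithelial and absorptive, had 13786 and 10349 CPM in sum and a median of -0.32, with 4 genes above 0 and 11 below. Ratios ran from 0.433 for Krt20 to 7.16 for Slc9a3, with the epithelial Epcam at 0.801. Plasma cell genes summed to 287 and 533 CPM, of which Jchain alone gave 72.2 and 299.7 CPM. Of the 8 plasma cell genes 6 lay above 0 and 2 below, Sdc1 at a ratio of 0.868 and Prdm1 called lower at 0.383. Paneth cell genes summed to 27.3 and 106 CPM, of which Ang4 alone gave 14.7 and 97.9 CPM. Of the 3 Paneth cell genes with 10 or more reads 2 lay above 0 and 1 below. The lower one was Lyz1, with 89 and 51 reads and a ratio of 0.479 [0.332 to 0.683]. Defa17, Defa24 and Defa30 were at 0 in both libraries. The part of these cell types in the metallothionein and transporter results was not tested. The labelled tissue was intestine, and the abstract of the study describes the sequenced tissue as colonic. The 15 colonocyte genes all had 10 or more reads. Of 12 small intestinal enterocyte genes 4 did, namely Slc5a1 with 1273 and 1201 reads, Anpep with 117 and 115, Rbp2 with 52 and 34, and Fabp2 with 56 and 299 and called higher, while Apoa4, Sis and Gata4 were at 0 in both libraries.

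**Figure D3:**
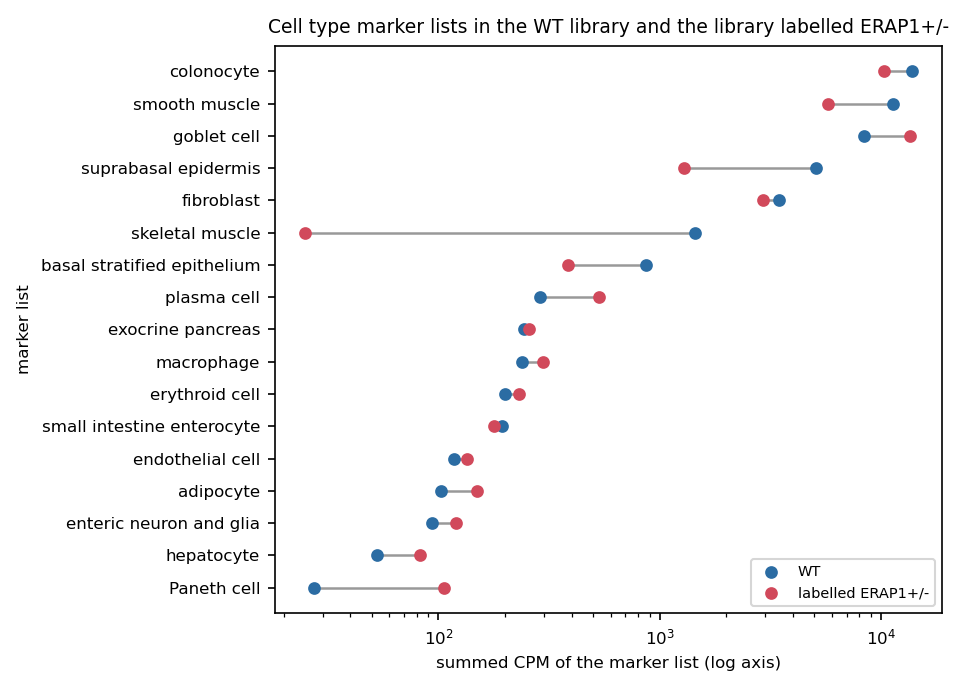
Summed CPM of each cell type marker list in the WT library and in the HT-labelled (ERAP1+/-) library, on a log axis. Skeletal muscle and suprabasal epidermis have the widest gaps, from 1448 to 24.9 CPM and from 5109 to 1295 CPM, 1243 of the latter being Tgm3, while goblet cell genes sit higher in the HT-labelled library.

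Among zinc exporters, Slc30a10 stood out. Its protein, ZnT10, is known chiefly as a manganese exporter. The gene (chr1:185454848-185468762) had 23 reads in WT and 150 in HT, or 2.96 and 16.1 CPM. The ratio was 5.45 [3.5 to 8.86] and the log2 difference 2.11, ranked 14 from the highest. Gm2061, which shares 533 exonic bases with it on the opposite strand, had 5 and 12 reads.

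Slc30a1 (chr1:191906767-191913247), the exporter at the plasma membrane and a classical MTF1 target, lay the other way. It had 535 reads in WT and 434 in HT, or 68.9 and 46.7 CPM, a ratio of 0.678 [0.596 to 0.771]. Mt1 reads per Slc30a1 read were accordingly 4.15 in WT and 11.8 in HT, an odds ratio of 2.84 [2.47 to 3.26] free of scaling. Slc30a10 reads per Slc30a1 read were 0.0430 and 0.346, an odds ratio of 8.03 [5.05 to 13.3]. Slc30a1 thus lay on the other side of 1 from Mt1 and Mt2.

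The exporters of internal compartments differed little. Slc30a6, of the Golgi, had 107 and 184 reads with a ratio of 1.44 [1.13 to 1.84], and Slc30a9, tied to mitochondria, 207 and 309 with 1.25 [1.04 to 1.49]. Slc30a4, of endosomal vesicles, had 258 and 261 reads with 0.845 [0.709 to 1.01]. For Slc30a5 and Slc30a7, of the early secretory pathway, the intervals held 1, with 69 and 88 reads at a ratio of 1.07 [0.769 to 1.48] and 304 and 336 reads at 0.923 [0.788 to 1.08]. In sum the family stood at 193 CPM in WT and 190 CPM in HT, a ratio of 0.980 [0.915 to 1.05], or 1.07 [0.998 to 1.15] with plain CPM. The make-up of its reads differed, since Slc30a1 gave 35.6% of them in WT and 24.6% in HT while Slc30a10 gave 1.53% and 8.5%. Reads come from transcript ends and are not divided by length, so these are shares of reads.

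Zinc importers also differed little in sum, at 668 CPM in WT and 650 CPM in HT, a ratio of 0.972 [0.937 to 1.01], or 1.06 [1.02 to 1.10] with plain CPM. Inside that sum lay opposite differences. Slc39a4 (chr15:76612383-76617384, minus strand), the apical importer that takes up dietary zinc and is mutated in acrodermatitis enteropathica, had 1517 reads in WT and 1116 in HT, or 195 and 120.0 CPM. Its ratio was 0.615 [0.568 to 0.664], a log2 difference of -0.70. Slc39a5, which faces the basolateral side, had 130 and 226 reads and a ratio of 1.45 [1.17 to 1.82]. Slc39a4 reads per Slc39a5 read were 11.7 in WT and 4.94 in HT, so the odds were 2.36 [1.87 to 3.0] times higher in WT. Neither gene passed the 2-fold limit.

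Slc39a8 (chr3:135825279-135888572) encodes ZIP8, an importer of manganese, zinc and iron closely related to ZIP14. It had 58 reads in WT and 169 in HT, or 7.46 and 18.2 CPM, a ratio of 2.43 [1.80 to 3.34]. Its relative Slc39a14 had 106 and 82 reads, a ratio of 0.646 [0.478 to 0.870]. Slc39a8 reads per Slc39a14 read were 0.547 and 2.06, an odds ratio of 3.75 [2.44 to 5.83]. Thus the order of the pair by reads was turned between the libraries.

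Slc39a11 (chr11:113244853-113650079, minus strand), whose ZIP11 lies at the Golgi and nucleus, had 727 and 1342 reads, or 93.6 and 144 CPM, a ratio of 1.54 [1.41 to 1.69]. Its share of the reads of the family was 14% in WT and 22.2% in HT, while that of Slc39a4 was 29.2% and 18.5%. Slc39a7, which releases zinc from the endoplasmic reticulum, had 590 and 829 reads with a ratio of 1.17 [1.05 to 1.31]. Slc39a9 had 951 and 958 reads with 0.841 [0.768 to 0.921]. Slc39a9 shares 459 exonic bases with Erh on the opposite strand, which had 9 and 32 reads, so its value is uncertain if counting ignored strand. Slc39a13 had 61 and 138 reads with 1.89 [1.39 to 2.60] and lay just under the level. It shares 215 exonic bases with Psmc3 on the opposite strand, which had 1512 and 1769 reads, so its value is uncertain if counting ignored strand. The intervals of Slc39a1, Slc39a2, Slc39a3, Slc39a6 and Slc39a10 held 1. Slc39a1 had 755 and 873 reads at a ratio of 0.966 [0.875 to 1.07], and Slc39a10 had 100 and 114 reads at 0.952 [0.722 to 1.26]. Slc39a6 had 99 and 92 reads at 0.776 [0.578 to 1.04], and Slc39a3 had 75 and 89 reads at 0.991 [0.721 to 1.37]. Slc39a2 had 22 and 16 reads at 0.607 [0.298 to 1.21]. Slc39a2 shares 151 exonic bases with Mettl17 on its own strand and is uncertain as well.

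**Figure D4:**
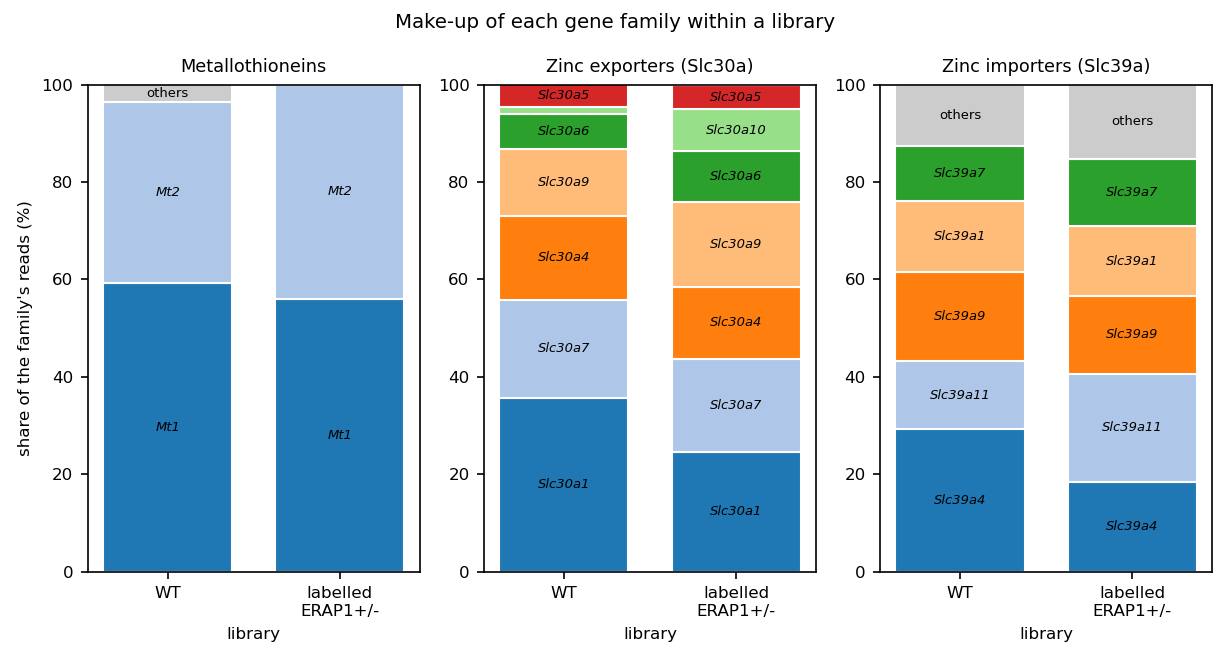
Make-up of the metallothionein, Slc30a and Slc39a reads within each library, in percent of the reads of the family (y axis from 0 to 100), with the most abundant genes named and the rest in grey. The thin unnamed band in the WT column of the Slc30a panel is Slc30a10 at 1.53%, and it widens to 8.5% in the HT-labelled library.

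None of the 7 iron genes of the set at the level was called different, beside 5.34% of all genes, a share too low for a count of 0 among so few genes to say anything about iron genes. Over these 9 genes the median log2 difference was -0.20, with 3 above 0 and 6 below, or 4 and 5 with plain CPM, where Ftl1 changed side. At the enterocyte, the apical importer Slc11a2 (DMT1, chr15:100387898-100425072) had 292 reads in WT and 231 in HT, or 37.6 and 24.8 CPM, with a ratio of 0.661 [0.554 to 0.788]. The basolateral exporter Slc40a1 (ferroportin, chr1:45908068-45926523) had 687 and 1063 reads, or 88.4 and 114 CPM, with a ratio of 1.29 [1.17 to 1.42]. Importer and exporter lay on opposite sides of 1. DMT1 messages with and without an iron responsive element were counted together in 1 gene value.

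The other enterocyte genes were less certain. Heph, the ferroxidase hephaestin that works with ferroportin, had 356 and 369 reads and a ratio of 0.866 [0.746 to 1.00]. Cybrd1, the duodenal ferric reductase, had 11 and 33 reads and a ratio of 2.51 [1.24 to 5.50], and stayed under the level in both libraries. Its levels of 1.42 and 3.55 CPM are low.

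The ferritin chains differed from each other. Fth1 (chr19:9980598-9985098), the heavy chain with ferroxidase activity, had 9918 reads in WT and 9368 in HT, or 1276 and 1007 CPM, a ratio of 0.789 [0.767 to 0.812]. Ftl1, the light chain, had 1993 and 2357 reads, or 256 and 253 CPM, a ratio of 0.988 [0.930 to 1.05]. Fth1 reads per Ftl1 read were 4.98 and 3.97, an odds ratio of 0.799 [0.747 to 0.854]. Ftl1 has near-identical pseudogene copies, of which Ftl1-ps2 had 18 and 20 reads, so some of its reads may have been divided among copies.

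Transferrin and its receptor lay on opposite sides of 1. Trf, the plasma iron carrier, had 251 and 451 reads with a ratio of 1.5 [1.28 to 1.76]. Tfrc, which brings transferrin-bound iron into cells, had 470 and 475 reads with 0.844 [0.742 to 0.961]. Erythroid genes, in cells rich in Tfrc, summed to 200.2 and 231 CPM, and hepatocyte genes, in the main source of Trf, to 52.9 and 82.8 CPM. Of the latter Ttr alone gave 50.3 and 76.2 CPM, Alb had 11 and 17 reads, and Serpina1a and Fgb were at 0 in both libraries. Hmox1 (chr8:75093621-75100589), which degrades heme and releases its iron, had 22 and 5 reads, or 2.83 and 0.537 CPM, a ratio of 0.190 [0.0562 to 0.514] below the level. Macrophage genes, another site of heme recycling, summed to 237 and 295 CPM. Of these 12 genes 7 lay above 0 and 5 below, and the counting intervals of 7 held a ratio of 1. The part of these cell types was not tested.

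**Figure D5:**
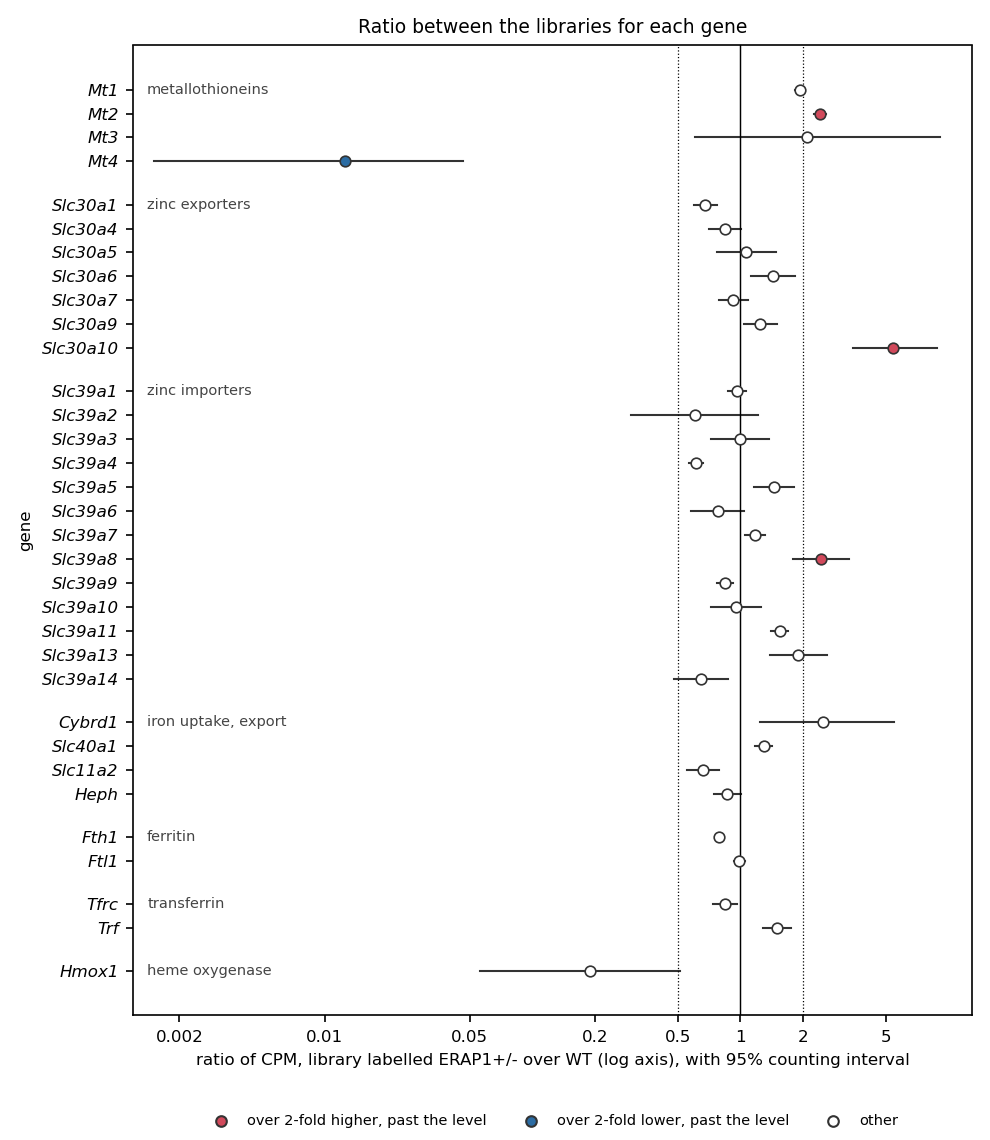
Ratio of CPM in the HT-labelled (ERAP1+/-) library to WT for each of the 33 genes on a log axis, with 95% counting intervals as bars and dotted lines at 2-fold. Filled points are the 4 genes called different, Mt2, Slc30a10 and Slc39a8 to the right and Mt4 to the left, and most other points lie between the dotted lines.

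Genes around these pathways were read from lists of 77 genes, of which 69 had 10 or more reads and 45 reached the level. Called different were 5 of these 45 (11.1%), beside 5.34% of all genes at the level, and the median over the 69 was -0.04 on the log2 scale. Of the called genes, S100a8, S100a9 and Osgin1 reached the level only through the library where they were high. The share is therefore not support for a change of these lists. None of the 7 iron regulators at the level was called, nor any of the 16 other genes of iron handling and heme, counts too small to set against that share. Aco1 and Ireb2, which encode the iron regulatory proteins, had ratios of 0.929 [0.766 to 1.13] and 1.25 [1.06 to 1.47]. Epas1, the HIF2 subunit that drives iron uptake genes in the gut, had 624 and 780 reads with 1.04 [0.939 to 1.16]. Hfe, the hemochromatosis protein, had 75 and 85 reads with 0.947 [0.686 to 1.31]. Slc46a1, a folate and heme transporter of the enterocyte, had 327 and 241 reads with 0.616 [0.519 to 0.729].

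Some iron genes under the level had few reads in 1 library. Ltf, the iron-binding lactoferrin of secretions and neutrophils, had 95 reads in WT and 5 in HT. Hjv, the hemojuvelin of liver and skeletal muscle, had 33 and 1, beside the 18 muscle genes that were all lower. Slc11a1, the iron and manganese transporter of phagosomes, had 3 and 37 reads, a ratio of 10.3 [3.26 to 52.2]. The hormone hepcidin is made chiefly in liver, and its gene Hamp had 0 and 2 reads. The related Hamp2 had 16 and 32 reads, a ratio of 1.67 [0.890 to 3.26]. Slc46a1 and these genes were named after their values were seen.

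The called genes lay in the zinc, copper and oxidative stress lists. S100a8 and S100a9, the calprotectin subunits that withhold zinc and manganese from microbes, were both higher, with 49 and 165 reads at a ratio of 2.81 [2.03 to 3.95] and 52 and 171 reads at 2.75 [2.0 to 3.82]. They are also neutrophil genes. Car4, a zinc enzyme of the colonocyte surface and a member of the colonocyte list, was lower at 0.462 [0.450 to 0.475]. Slc31a2, a copper transporter, had 299 and 165 reads, a ratio of 0.461 [0.379 to 0.559]. Among 10 targets of the stress factor NRF2, Osgin1 was called, with 144 and 72 reads and 0.418 [0.310 to 0.558], and the median of the list was -0.00128.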

How the data were processed

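RNA of intestine from 3 mice per genotype was pooled and sequenced as 1 3' library per genotype (QuantSeq, single-end). The deposited values are raw read counts per gene symbol. The methods name STAR with HTSeq-count and, elsewhere, Bowtie2 with RSEM, and the submitters' processing notes list Bowtie2, RSEM and GRCm38. Which of them made the counts, and whether strand was used, is not given in the sources used here. Counts were scaled by TMM (edgeR 4.0.16, R 4.3.3; factors 0.958 for WT and 1.04 for HT) and set on log2(CPM + 1). With 1 library per genotype no model was fitted and no paired analysis or test was made. A gene was called at more than 2-fold with a level of 4 or more in 1 or both libraries. Ratios have exact conditional binomial 95% intervals and shares exact Clopper-Pearson ones (scipy 1.17.1), which cover counting error only. The rule named all members, the genes called in the context lists, and Mtf1, Aco1, Ireb2, Epas1 and Hfe. Further context genes were named after their values were seen. The calling and scaling steps were tested on simulated data with counting error only and 4-fold changes in genes with many reads. That check does not cover differences between mice, changes near 2-fold or genes with few reads. Members and lists were chosen with earlier results of these data known. Alternatives were DESeq2 1.42.0 size factors, plain CPM, other thresholds, filters and a pseudocount of 0.1. Gene positions are those of GENCODE M21 (GRCm38), which held all 37 members, and promoter windows those of RefSeq.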

Additional observations from a re-analysis of the deposited data

How the results depend on the processing

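The 4 called genes kept their direction under each scaling and pseudocount tried. With DESeq2 size factors, with mitochondrial and ribosomal RNA left out, or with the skin and muscle lists left out, none of the 33 genes moved beyond its counting interval. A pseudocount of 0.1 moved the log2 differences of Mt4 to -5.77 and of Hmox1 to -2.20. Plain CPM shifted the median over the genes at the level by 0.12 on the log2 scale, raised the median of the set from -0.02 to 0.10, brought Mt1 past 2-fold (5 genes called) and turned the sign of Ftl1, Slc30a7, Slc39a1, Slc39a10 and Slc39a3. It moved the share of lower calls among all genes from 74.1% to 59.9%. A 4-fold limit left 2 genes of the set called (1 higher) and 160 of all genes, and a 1.5-fold limit gave 7 (5 higher with Mt1 and Slc39a11, 2 lower with Slc39a4) and 1247. With no filter 2 genes were lower, Hmox1 being added, as with 10 or more reads, beside 1434 and 1390 of all genes called against 428. No paired analysis was possible because there was a single library for WT and for HT, and none could be left out. Depth limits Mt3, Slc39a2 and Cybrd1, which have few reads.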
